A study of Mus musculus with 9 samples.

Results

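The genes described here are 10 members of the Notch pathway: the receptors *Notch1*, *Notch2*, *Notch3* and *Notch4*, the ligands *Jag1*, *Jag2* and *Dll1*, and the target genes *Hes1*, *Hey1* and *Heyl*. They were taken by name, as 10 of the 55228 genes in a table of RNA-seq read counts. Of these, 9 passed a filter on low counts and were among the 15253 genes tested, and *Heyl* did not pass it. The cells were undifferentiated HC11, an epithelial line from the mammary gland of a BALB/c mouse, grown with serum, insulin and epidermal growth factor in all cultures. The study compared parental cells (WT) with lines edited by CRISPR/Cas9 to disrupt *Vangl2*, which encodes a transmembrane protein of planar cell polarity. The edited lines, KD1 and KD2, are given in the labels as the first and second *Vangl2* knockout, and each line has 3 replicates, called cultures here. Each edited line was expanded from a single colony after nucleofection of a guide RNA with a repair template carrying stop codons, so each is 1 clone, and no cloned line without a *Vangl2* guide was analysed here. Effects of the edit and differences between clones therefore cannot be told apart. The labels do not say that the 3 replicates of a line came from separate cultures, so the p-values measure the spread between these samples, which may be technical.

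Notch receptors are single-pass membrane proteins that bind Jagged and Delta-like ligands on neighbouring cells. Ligand binding exposes the receptor to cleavage by an ADAM protease and then by the gamma-secretase complex, and the released intracellular domain enters the nucleus and joins the DNA-binding protein RBPJ and a Mastermind co-activator to turn on genes such as those of the HES and HEY families of repressors. In the mammary gland the pathway is known for its part in the choice between luminal and basal epithelial fates.

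Depth ranged from 19231428 to 28360592 counts per culture. Counts were scaled to CPM, a common depth set by the TMM-adjusted library size, and *Vangl2* itself, with 66, 99 and 86 counts for WT replicates 1 to 3, 75, 48 and 69 for those of KD1, then 90, 118 and 90 for those of KD2, stood at 3.85 ± 0.421 CPM for WT, 2.48 ± 0.513 for KD1, and 4.00 ± 0.399 for KD2 (mean ± SD, n = 3). Its transcript was lower in KD1 (log2 fold change -0.63 ± 0.17 SE, quasi-likelihood test of edgeR, Benjamini-Hochberg adjusted p = 0.00581) and did not pass the test in KD2 (0.05 ± 0.16, adjusted p = 0.810), so the transcript level did not mark the line labelled KD2 as edited. A stop codon need not lower the level of a transcript. At the protein level, the paper reports from immunoblots that VANGL2 was almost absent in KD1 and strongly reduced in KD2. Replicate 3 of KD2 stood apart from the other KD2 cultures, with a chi-square per degree of freedom of 17.4 and 22.1 over genes against 1.74 between the others, and replicate 1 of WT stood apart to a lesser degree. Of 6 basal epithelial markers, 4 to 6 were above 3 counts in every culture of a line, and their summed level was 3578 to 4021 CPM in WT, 3853 to 3954 in KD1 and 1800 to 2291 in KD2. Most of that sum was *Krt5* and *Krt14*, and the list did not move as one. *Trp63* was lowest in KD2, but *Acta2* was highest there (1.54 ± 0.100 CPM against 0.165 ± 0.101 in WT), and *Oxtr* and *Myh11* were lowest in KD1, *Oxtr* at 0.0774 ± 0.0389 CPM against 7.78 ± 0.956 in WT. Of 7 luminal markers, 5 were above 3 counts in every culture, with summed levels of 1435 to 1572 CPM in WT, 1922 to 1990 in KD1 and 1186 to 1373 in KD2, while *Krt19* was at 0 throughout. *Epcam* and *Cdh1* made up most of it and were lowest in KD2, whereas *Krt8* and *Elf5* were highest in KD2, *Krt8* at 268 ± 29.7 CPM against 158 ± 21.5 in WT. The summed level of 6 markers stayed at or under 5.82 CPM in every culture for endothelium, which lacked *Emcn*, at or under 8.61 for leukocytes, which lacked *Adgre1*, and at or under 27.3 for fibroblasts. The part of these levels in the results was not tested.

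The promoter windows of 4 genes are shown because *Notch1* and *Dll1* had opposite directions in the edited lines while *Notch3* and *Notch4* were higher in both, and because the proteins made from HES and HEY genes bind DNA at short motifs. RefSeq promoter sequences (GRCm38.p6, 250 bases before to 50 after a gene's start) were at hand for 7 of the 10 genes, with none for *Hes1*, *Hey1* and *Heyl*. Each is printed 5′ to 3′ on the strand of the gene. Capitals mark a match on either strand to the N box (CACNAG) or the class C site (CACGNG), both known as sites of HES proteins. The *Notch1* window lies at chr2:26503773-26504072 on the minus strand, within the gene, 12841 bases from the start of the gene model in GENCODE. The *Notch3* window lies at chr17:32166841-32167140 on the minus strand, that of *Notch4* at chr17:34564045-34564344 on the plus strand, and the first of 2 for *Dll1* at chr17:15376883-15377182 on the minus strand.
Notch1: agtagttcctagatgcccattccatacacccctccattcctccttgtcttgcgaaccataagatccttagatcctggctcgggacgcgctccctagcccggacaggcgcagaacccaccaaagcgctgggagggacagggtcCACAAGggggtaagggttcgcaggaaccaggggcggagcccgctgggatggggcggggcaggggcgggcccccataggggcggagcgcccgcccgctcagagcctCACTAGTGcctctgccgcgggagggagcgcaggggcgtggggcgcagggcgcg
Notch3: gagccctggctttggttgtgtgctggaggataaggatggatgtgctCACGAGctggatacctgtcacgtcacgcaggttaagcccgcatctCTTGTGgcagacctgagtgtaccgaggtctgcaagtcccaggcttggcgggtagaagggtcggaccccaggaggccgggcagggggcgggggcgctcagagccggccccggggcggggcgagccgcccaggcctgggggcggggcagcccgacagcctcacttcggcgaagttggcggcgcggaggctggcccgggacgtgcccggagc
Notch4: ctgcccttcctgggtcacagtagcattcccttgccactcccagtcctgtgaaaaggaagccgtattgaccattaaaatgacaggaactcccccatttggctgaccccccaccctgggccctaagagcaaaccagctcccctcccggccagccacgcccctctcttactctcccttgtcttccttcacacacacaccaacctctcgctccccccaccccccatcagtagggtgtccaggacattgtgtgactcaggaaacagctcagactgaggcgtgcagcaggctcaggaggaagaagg
Dll1: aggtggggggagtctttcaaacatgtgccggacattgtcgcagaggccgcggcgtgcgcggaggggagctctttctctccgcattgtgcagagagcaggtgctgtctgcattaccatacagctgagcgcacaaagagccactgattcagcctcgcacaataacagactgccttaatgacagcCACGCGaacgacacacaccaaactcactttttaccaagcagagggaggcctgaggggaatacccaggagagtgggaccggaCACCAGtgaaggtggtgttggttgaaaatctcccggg

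The core of the RBPJ motif (TGGGAA) was found on neither strand of the 8 windows of the 7 genes, and 25.6% of 32851 mouse promoters held it. The N box was found in 4 of the 8 windows and in 42.5% of all promoters, and the class C site in 6 of the 8 and in 27.5% of all. The 8 windows ranged from 55.7% (*Jag1*) to 86% (*Jag2*) in G and C bases, and the class C site itself holds a CG. All promoters were taken without matching for such content, so no enrichment is read from these shares. The sequence CACGAG fits both motifs, as at position -204 of *Notch3*, where positions count from the gene's start. *Notch1* held N boxes at -108, -3 and -1, the last 2 overlapping, *Notch3* a further N box at -159, and *Dll1* a class C site at -68 and an N box at 14. The *Notch4* window held none of the 3 motifs. These matches describe letters in a window and not binding.

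Levels can be set side by side between genes only per length of transcript. In WT, the order by CPM per kilobase of merged exon was *Hes1* at 61.3 ± 8.51 (mean ± SD, n = 3), *Jag1* at 47.0 ± 5.48, *Jag2* at 42.0 ± 2.58, *Notch2* at 16.0 ± 1.07, *Notch1* at 11.1 ± 0.736, *Hey1* at 5.995 ± 0.636, *Notch3* at 3.54 ± 0.273, *Dll1* at 2.07 ± 0.182 and *Notch4* at 0.0224 ± 0.00920. Only *Jag1* and *Jag2* overlapped among neighbours in this order, and the ligand and receptor transcripts of parental HC11 cells were mostly those of *Jag1*, *Jag2*, *Notch2* and *Notch1*. In KD1 the order began with *Jag1* at 52.8 ± 1.20, *Jag2* at 32.9 ± 0.727 and *Hes1* at 26.7 ± 1.79, and *Notch3* at 5.89 ± 0.184 stood above *Notch1* at 4.70 ± 0.238. In KD2 it began with *Hes1* at 44.7 ± 5.67, *Jag1* at 38.0 ± 1.89 and *Jag2* at 27.9 ± 4.85, and *Notch1* at 17.2 ± 1.08 stood below *Notch2* at 21.3 ± 0.603. In neither edited line did neighbours in the order overlap.

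**Figure D1:**
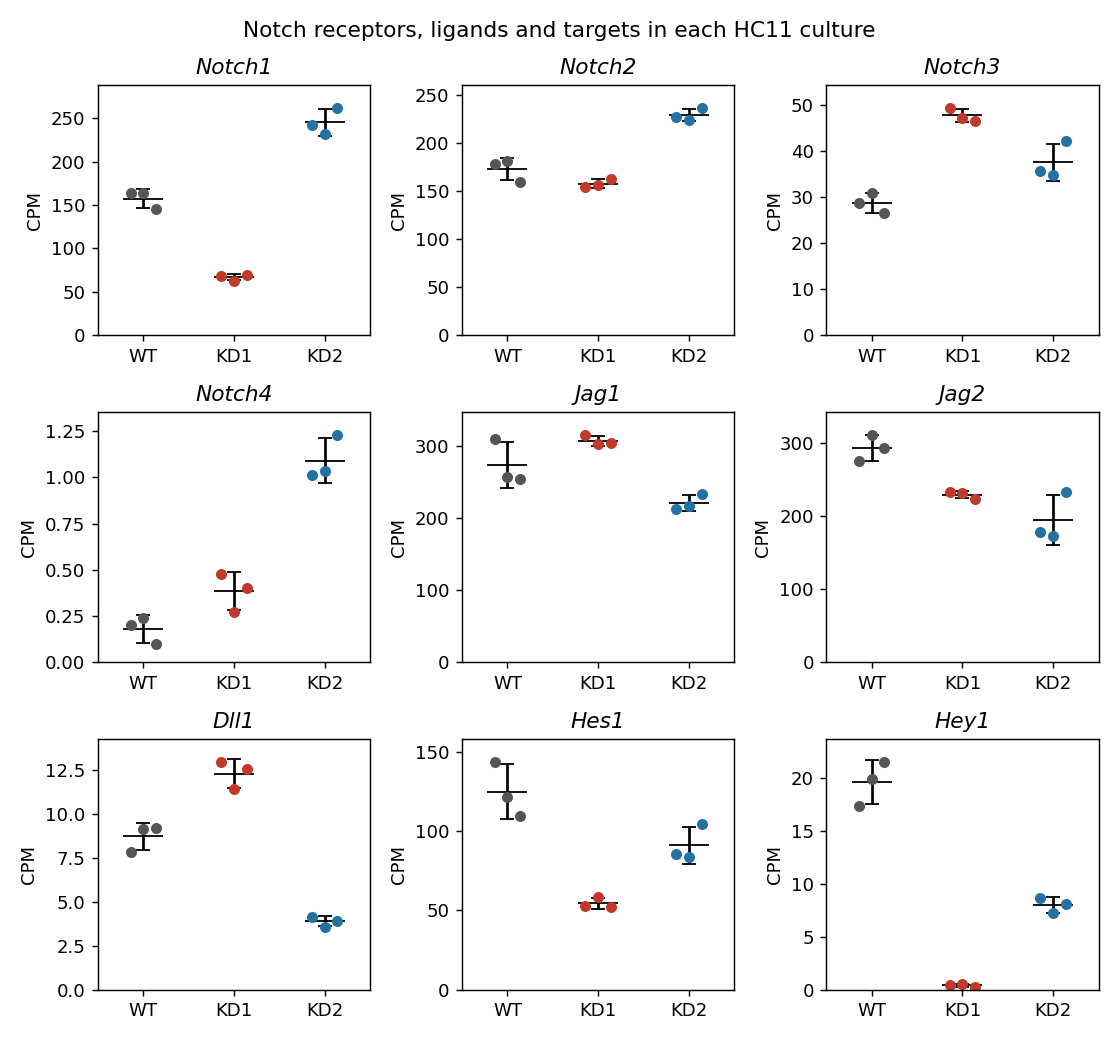
Level in CPM (linear axes from 0) of the 9 Notch genes with counts in each of 9 HC11 cultures; each point is 1 culture of WT, KD1 or KD2, the horizontal line the mean and the bar ± 1 SD of 3. *Notch1* is lowest in KD1 and highest in KD2, while *Hey1* is highest in WT and near 0 in KD1.

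*Notch1*, the only receptor that passed the test in opposite directions in the edited lines, lies at chr2:26457903-26516663 on the minus strand of GRCm38 (ENSMUSG00000026923). Its reads came to 3188, 4092 and 2977 counts for WT replicates 1 to 3, 1864, 1602 and 1709 for those of KD1, then 5980, 6969 and 5327 for those of KD2. All KD1 cultures were below all WT cultures and all KD2 cultures above them. Scaled to depth, the means were 157 ± 10.5 CPM for WT, 66.9 ± 3.39 for KD1, and 245 ± 15.3 for KD2. *Notch1* fell in KD1 with a log2 fold change of -1.23 ± 0.070 (SE), or 2.35-fold lower (edgeR adjusted p = 2.93e-09, from the quasi-likelihood test with Benjamini-Hochberg adjustment over all genes, as are those that follow). It rose in KD2 by 0.64 ± 0.068, or 1.56-fold (edgeR adjusted p = 1.74e-06). The direct comparison of the edited lines gave 1.87 ± 0.071 for KD2 against KD1 (edgeR adjusted p = 2.41e-11). A bulk level cannot tell fewer cells that express a gene from less RNA per cell. Exons of *0610009E02Rik* and *Gm13568*, on the opposite strand, overlap 9.76% of its exon bases, and these genes had at most 11 counts in a culture.

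*Notch2*, the receptor with the highest level per length in all 3 lines, lies at chr3:98013527-98150361 on the plus strand (ENSMUSG00000027878). Its cultures held 3469, 4525 and 3267 counts for WT replicates 1 to 3, 4179, 3976 and 4032 for those of KD1, then 5613, 6740 and 4811 for those of KD2. The WT and KD1 cultures overlapped, and every KD2 culture was above both. *Notch2* levels were 173 ± 11.6 CPM for WT, 158 ± 4.34 for KD1, and 229 ± 6.50 for KD2. *Notch2* rose in KD2 by 0.41 ± 0.060 on the log2 scale against WT (edgeR adjusted p = 3.81e-05) and by 0.54 ± 0.060 against KD1 (edgeR adjusted p = 2.28e-06). In KD1 its log2 fold change of -0.13 ± 0.060 did not pass the test (95% interval -0.26 to -0.0014, edgeR adjusted p = 0.0786), though it did without WT replicate 3 (-0.16, adjusted p = 0.0454) or without KD2 replicate 3 (-0.11, adjusted p = 0.0388). Exons of *Gm42820*, on the same strand, overlap 5.02% of *Notch2* exon bases, and it had at most 28 counts in a culture.

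*Notch3*, a receptor with a shorter intracellular domain than NOTCH1, lies at chr17:32120820-32166852 on the minus strand (ENSMUSG00000038146). For *Notch3* the table held 559, 772 and 542 counts for WT replicates 1 to 3, 1336, 1200 and 1152 for those of KD1, then 881, 1044 and 855 for those of KD2. All edited cultures were above all WT cultures, and KD1 above KD2. The levels were 28.7 ± 2.21 CPM for WT, 47.7 ± 1.49 for KD1, and 37.5 ± 3.99 for KD2. *Notch3* rose in KD1 by 0.73 ± 0.082 on the log2 scale (edgeR adjusted p = 3.70e-06) and in KD2 by 0.38 ± 0.083 (edgeR adjusted p = 0.00105), and these contrasts share the WT cultures. KD2 was lower than KD1, with a difference of -0.35 ± 0.080 (edgeR adjusted p = 0.00143). Exons of *Gm17276*, on the opposite strand, overlap 6.03% of its exon bases, and that gene had at most 3 counts in a culture.

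*Notch4*, a receptor best known from endothelium and as the site of insertions of mouse mammary tumour virus, was near the limit of detection. It lies at chr17:34564268-34588503 on the plus strand (ENSMUSG00000015468) and its reads were 4, 6 and 2 counts for WT replicates 1 to 3, 13, 7 and 10 for those of KD1, then 25, 31 and 25 for those of KD2. A count of 3 is worth 0.0999 to 0.154 CPM in these libraries, and WT replicate 3 was below it. The 3 lines did not overlap, with WT lowest and KD2 highest. The ratio of summed counts per unit of depth was 5.84 for KD2 to WT, with a 95% interval of 3.17 to 11.8 that covers counting error only, and 2.10 (1.05 to 4.51) for KD1 to WT. *Notch4* passed the low-count filter only through KD2, where 3 cultures were above 0.392 CPM, against 1 in KD1 and 0 in WT, so KD2 had to differ from the other lines. Its KD2 values are therefore a description with no test, a log2 fold change of 2.52 against WT and of 1.47 against KD1. In KD1 its log2 fold change of 1.05 ± 0.41 passed (edgeR adjusted p = 0.0426) but did not with DESeq2 (adjusted p = 0.0979) or without the filter on low counts (1.06, edgeR adjusted p = 0.0872). That call was also lost without WT replicate 1 (1.12, edgeR adjusted p = 0.0719), WT replicate 3 (0.80, 0.172), KD1 replicate 1 (0.86, 0.166), KD1 replicate 3 (1.03, 0.0904), KD2 replicate 1 (1.06, 0.0549) or KD2 replicate 2 (1.06, 0.0541). The summed endothelial markers were 2.20 to 2.78 CPM in WT, 5.02 to 5.82 in KD1 and 1.48 to 1.94 in KD2, and *Pecam1* had the highest mean of them in each line, at 2.16 ± 0.245, 4.91 ± 0.288 and 0.919 ± 0.0255 CPM. *Cdh5*, another of these markers, had the same order as *Notch4*, with 0 to 1 counts in WT cultures, 5 to 7 in KD1 and 7 to 24 in KD2. Their part in the *Notch4* level was not tested.

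Summed over the 4 receptors, the level was 30.6 ± 2.06 CPM per kilobase in WT, 25.3 ± 0.463 in KD1 and 43.3 ± 2.18 in KD2 (mean ± SD, n = 3). *Notch1* made up 36.1 ± 0.307% of this receptor pool in WT, 18.6 ± 0.661% in KD1 and 39.8 ± 0.523% in KD2. The share of *Notch3* was 11.6 ± 0.325% in WT, 23.3 ± 0.901% in KD1 and 10.7 ± 0.594% in KD2, and that of *Notch2* was 52.3 ± 0.0294%, 57.9 ± 1.16% and 49.2 ± 1.07%. The *Notch3* share of every KD1 culture was above that of every WT culture, and the *Notch1* share below it. Each edited line was separate from WT in the summed level and in the *Notch1* and *Notch2* shares, with an exact two-sided permutation p = 0.1, the smallest that 3 cultures against 3 can give. For the *Notch3* share the same exact permutation test gave p = 0.1 for KD1 and 0.2 for KD2.

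**Figure D2:**
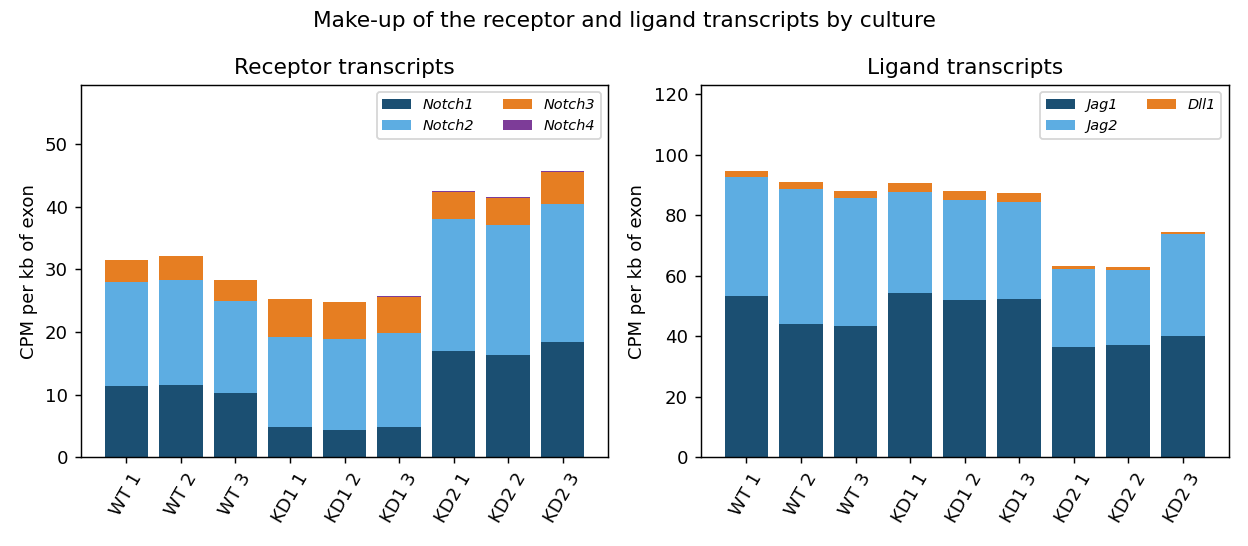
Summed level per length (CPM per kilobase of exon) of the receptors and of the ligands, split by gene, with 1 stacked bar for each culture of WT, KD1 and KD2. The mean receptor sum is 25.3 in KD1 and 43.3 in KD2 against 30.6 in WT, and the mean ligand sum is 66.8 in KD2 against 91.1 in WT.

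*Jag1*, the ligand with the highest mean level per length in every line, lies at chr2:137081456-137116644 on the minus strand (ENSMUSG00000027276). The *Jag1* gene was given 6061, 6415 and 5199 counts for WT replicates 1 to 3, 8550, 7697 and 7554 for those of KD1, then 5277, 6507 and 4752 for those of KD2. In CPM, WT replicate 1 was within the KD1 range while the other WT cultures were below it, and all KD2 cultures were below all others. Its levels were 274 ± 31.9 CPM for WT, 308 ± 6.99 for KD1, and 221 ± 11.0 for KD2. *Jag1* fell in KD2 with a log2 fold change of -0.31 ± 0.075 (edgeR adjusted p = 0.00245) and was lower in KD2 than in KD1, with a difference of -0.48 ± 0.075 (edgeR adjusted p = 6.34e-05). In KD1 its log2 fold change of 0.17 ± 0.075 did not pass (95% interval 0.0086 to 0.33, edgeR adjusted p = 0.0678). It did pass without WT replicate 1 (0.27, edgeR adjusted p = 0.00259) or without KD2 replicate 3 (0.19, edgeR adjusted p = 0.00746), and with DESeq2 (0.19, adjusted p = 0.0376). It also passed with RLE size factors (0.19, edgeR adjusted p = 0.0431), without the filter (0.18, 0.0393), with at least 10 counts in every culture (0.21, 0.0320) and in a fit of the 6 cultures compared (0.21, 0.0137), so this call depends on the setting.

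*Jag2*, the other Jagged ligand, lies at chr12:112907819-112929776 on the minus strand (ENSMUSG00000002799). There were 5366, 7771 and 6000 counts for WT replicates 1 to 3, 6313, 5877 and 5541 for those of KD1, then 4392, 5184 and 4744 for those of KD2. In CPM, all edited cultures were below all WT cultures, and the edited lines overlapped, since KD2 replicate 3 was above the other KD2 cultures. The *Jag2* level was 293 ± 18.0 CPM for WT, 229 ± 5.06 for KD1, and 194 ± 33.8 for KD2. *Jag2* fell in KD1 with a log2 fold change of -0.35 ± 0.095 (edgeR adjusted p = 0.00572) and in KD2 with one of -0.59 ± 0.095 (edgeR adjusted p = 8.64e-05). The difference between KD2 and KD1 was -0.24 ± 0.095 (edgeR adjusted p = 0.0394). Without KD2 replicate 3 it was -0.38, and without KD2 replicate 2 it was -0.16 and no longer passed (edgeR adjusted p = 0.161). Leaving out KD2 replicate 1 (-0.18, edgeR adjusted p = 0.148), KD1 replicate 1 (-0.23, 0.0909), KD1 replicate 2 (-0.24, 0.0819), KD1 replicate 3 (-0.26, 0.0556) or WT replicate 3 (-0.24, 0.0566) ended that call as well. It was lost too with at least 10 counts in every culture (-0.20, edgeR adjusted p = 0.0756), in a fit of the 6 cultures compared (-0.25, 0.0605) and with library size alone (-0.11, 0.316).

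*Dll1*, a Delta-like ligand known in the mammary gland from basal stem cells, lies at chr17:15367354-15376872 on the minus strand (ENSMUSG00000014773). For *Dll1* there were 153, 229 and 188 counts for WT replicates 1 to 3, 351, 290 and 311 for those of KD1, then 103, 108 and 79 for those of KD2. The 3 lines did not overlap, with KD1 highest and KD2 lowest. Levels of *Dll1* were 8.72 ± 0.769 CPM for WT, 12.3 ± 0.805 for KD1, and 3.88 ± 0.284 for KD2. *Dll1* rose in KD1 by 0.49 ± 0.10 on the log2 scale (edgeR adjusted p = 0.000815) and fell in KD2 with a log2 fold change of -1.17 ± 0.11, or 2.26-fold lower (edgeR adjusted p = 6.98e-07). Directions in the edited lines were thus opposite, as for *Notch1* but the other way round. KD2 was below KD1, with a log2 difference of -1.67 ± 0.11, or 3.18-fold (edgeR adjusted p = 9.34e-09). Exons of *A930024N18Rik*, on the opposite strand, overlap 20.5% of its exon bases. Of the basal epithelial markers given above, *Krt5*, *Krt14* and *Trp63* were also lowest in KD2 and *Acta2*, *Oxtr* and *Myh11* were not, and their part was not tested.

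The ligands together stood at 91.1 ± 3.41 CPM per kilobase in WT, 88.6 ± 1.82 in KD1 and 66.8 ± 6.70 in KD2 (mean ± SD, n = 3). All KD2 cultures were below all WT cultures (exact two-sided permutation p = 0.1, the smallest possible), and KD1 and WT overlapped (exact p = 0.3). *Jag1* made up 51.5 ± 4.24% of the ligand pool in WT, 59.6 ± 0.381% in KD1 and 57.0 ± 2.83% in KD2. *Dll1* was the smallest share in each line, at 2.28 ± 0.275%, 3.29 ± 0.183% and 1.39 ± 0.166%.

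*Hes1*, a transcriptional repressor and the best-known Notch target, lies at chr16:30064384-30067796 on the plus strand (ENSMUSG00000022528). *Hes1* drew 2804, 3032 and 2243 counts for WT replicates 1 to 3, 1432, 1491 and 1286 for those of KD1, then 2113, 2506 and 2121 for those of KD2. In CPM, no culture of one line overlapped another line, with WT highest and KD1 lowest. That came to 125 ± 17.3 CPM for WT, 54.5 ± 3.65 for KD1, and 91.1 ± 11.5 for KD2. *Hes1* fell in KD1 with a log2 fold change of -1.20 ± 0.10, or 2.29-fold (edgeR adjusted p = 2.92e-07), and in KD2 with one of -0.46 ± 0.10, or 1.37-fold (edgeR adjusted p = 0.00133). KD2 was above KD1 by 0.74 ± 0.10 (edgeR adjusted p = 2.32e-05). *Hes1* was thus lower than WT in both edited lines and lowest in KD1. *Notch1* was also lowest in KD1 but above WT in KD2, and its part in the *Hes1* level was not tested.

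*Hey1*, a related repressor, gave the largest difference among the 10 genes. It lies at chr3:8663359-8667256 on the minus strand (ENSMUSG00000040289) and its reads were 339, 497 and 440 counts for WT replicates 1 to 3, 11, 14 and 7 for those of KD1, then 215, 217 and 165 for those of KD2. The KD1 cultures held 32 counts in all, against 1276 in WT and 597 in KD2, and the lines did not overlap. Its level was 19.6 ± 2.08 CPM for WT, 0.413 ± 0.134 for KD1, and 8.01 ± 0.739 for KD2. *Hey1* fell in KD1 with a log2 fold change of -5.55 ± 0.18, or 46.8-fold (edgeR adjusted p = 6.95e-12), the 107th lowest of 15253 fold changes. The ratio of summed counts per unit of depth, WT to KD1, was 47.4 with a 95% interval of 33.4 to 69.6 for counting error only. In KD2 *Hey1* fell with a log2 fold change of -1.29 ± 0.11, or 2.45-fold (edgeR adjusted p = 2.62e-07), and KD2 was above KD1 by 4.25 ± 0.20 (edgeR adjusted p = 2.11e-10). *Heyl*, the third member of the HEY family (chr4:123233556-123249875, plus strand, ENSMUSG00000032744), had 0 counts in all 9 cultures, which allows a level of up to 0.0999 to 0.154 CPM depending on the culture.

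Beside the whole transcriptome, the counts are given over 8 Notch genes, without *Notch4*, which the filter let through by its KD2 level. The Notch genes were chosen with earlier results of these data known. Their counts and medians therefore describe them and cannot be weighed against the values of all genes. Between KD1 and WT, 6 of 8 passed, 2 higher and 4 lower, where 56.9% of all 15253 genes did, 26.9% higher and 30.0% lower. Between KD2 and WT 8 of 8 passed, 3 higher and 5 lower, where 67.2% of all genes did, 34.0% higher and 33.3% lower. Between KD2 and KD1 8 of 8 passed, 4 higher and 4 lower, where 67.8% of all genes did, 34.8% higher and 33.0% lower. At more than 2-fold the counts were 3, 2 and 3 of 8, against 16.8%, 21.2% and 23.3% of all genes. The cultures did not overlap for 6, 8 and 7 of 8 Notch genes, against 68.8%, 67.9% and 71.6% of all genes. The median absolute log2 fold change of the 8 genes was 0.61 for KD1 against WT, 0.52 for KD2 against WT and 0.64 for KD2 against KD1, beside 0.35, 0.46 and 0.46 over all genes tested. With *Notch4* counted, 7 of 9 passed in KD1, 9 of 9 without KD2 replicate 3. So most genes in these lines differed, and a passed test alone did not set the Notch genes apart.

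**Figure D3:**
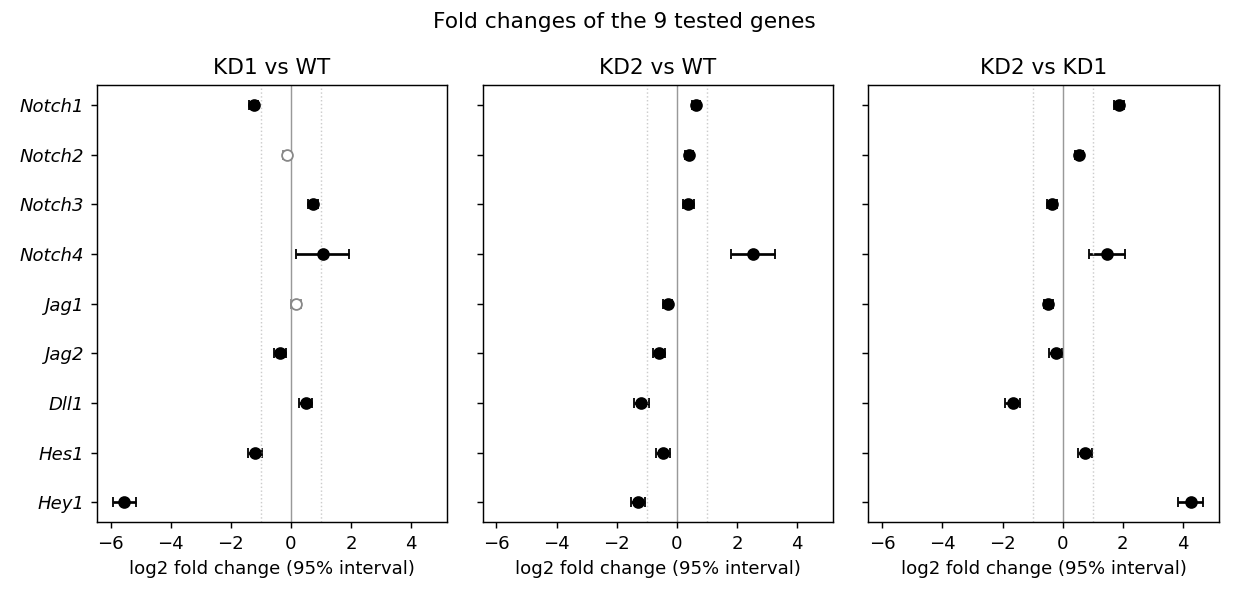
Log2 fold change of the 9 Notch genes tested in KD1 against WT, KD2 against WT and KD2 against KD1, with 95% intervals from edgeR's fit; filled points passed the test, open points did not, and dotted lines mark 2-fold. *Notch1* and *Dll1* lie on opposite sides of 0 in the edited lines, *Hey1* lies at -5.55 in KD1 and -1.29 in KD2, and *Notch4*, which entered the test only through its KD2 level, has the widest intervals.

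**Figure D4:**
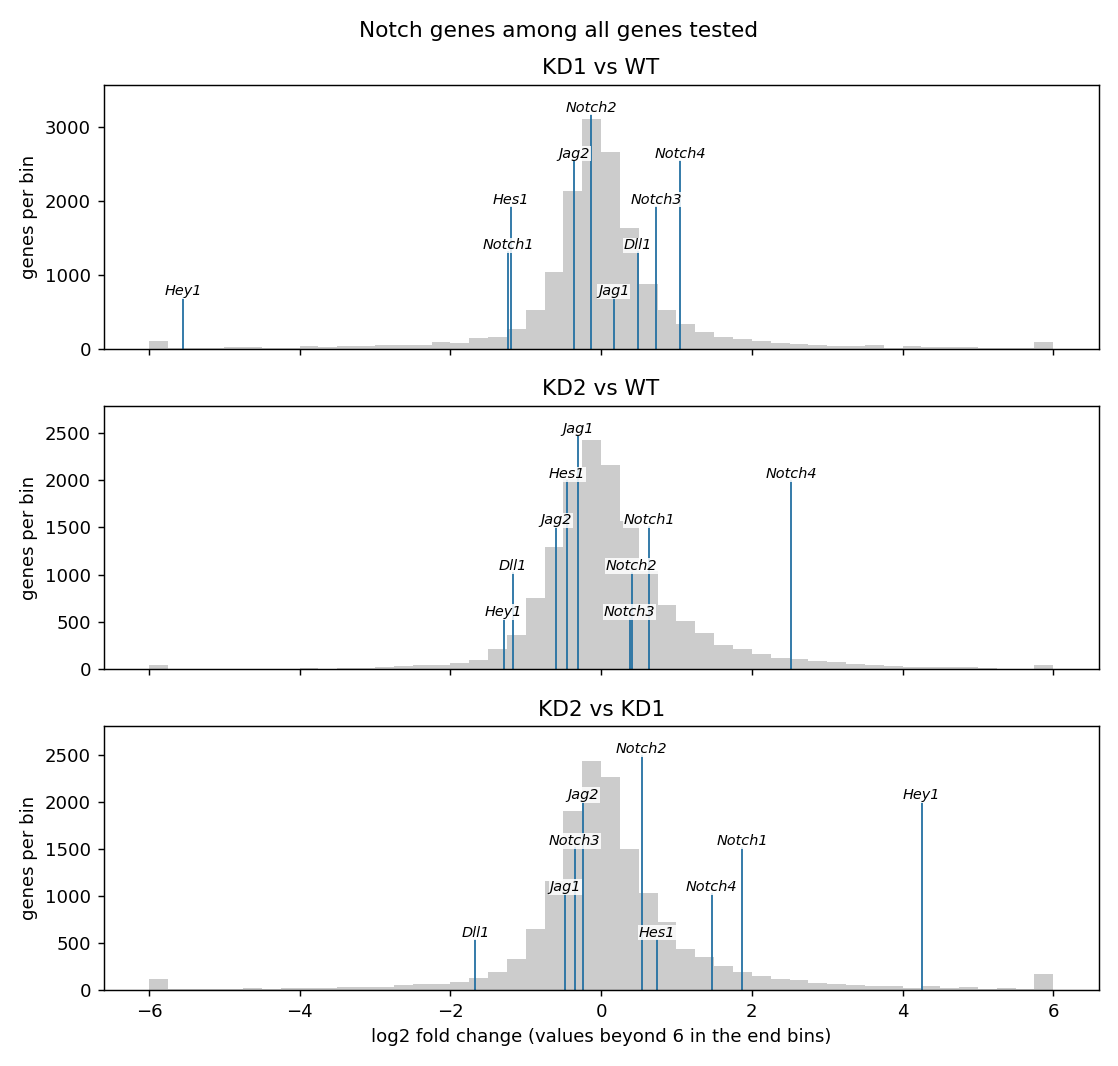
Distribution of log2 fold changes over the 15253 genes tested, in each comparison, with genes per bin on the vertical axis and the 9 Notch genes as lines whose height carries no value. *Hey1* lies in the far lower tail in KD1, and *Notch4* in the upper tail in KD2 at 2.52. *Notch4* entered the test only through its KD2 level, so a high place in KD2 was bound to appear.

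Genes near the Notch genes on the chromosome did not always stay at the median of all genes, which was -0.03 in KD1 and 0.01 in KD2. The 84 other tested genes within 2 Mb of *Notch1* had a median log2 fold change of -0.28 in KD1 and 0.35 in KD2, on the same side of 0 as *Notch1* and smaller. The 64 around *Notch3* had 0.36 in KD2, close to the 0.38 of *Notch3* itself, and -0.21 in KD1, where *Notch3* was at 0.73. Whole chromosomes were shifted too, with KD2 medians of 0.28 over chromosome 17 of *Notch3*, 0.14 over chromosome 2 of *Notch1* and 0.23 over chromosome 12 of *Jag2*. The KD1 medians of these chromosomes were 0.0077, -0.16 and 0.073. Around *Jag1*, *Jag2* and *Dll1*, which were lower in KD2, the KD2 medians were 0.49, 0.40 and 0.18, over 6, 43 and 27 genes. Around *Notch2* and *Notch4*, which were higher in KD2, the KD2 medians were 0.054 and 0.45, over 42 and 120 genes. The 15 around *Hey1* had -0.54 in KD1 and 0.0034 in KD2, and the 24 around *Hes1* had 0.21 in KD1 and -0.19 in KD2. The part of the neighbourhood in the members' differences was not tested.

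A wider list of 59 other Notch genes, in 8 roles, held 50 that were tested. It too was chosen with earlier results of these data known. By rule, the gene of each role that passed with the largest absolute log2 fold change in each edited line is named below. Genes named by this rule were picked by their values here, and their adjusted p-values do not allow for that choice. In KD1, 10 of the 50 rose, 22 fell and 18 did not pass, with a median log2 fold change of -0.15. In KD2, 16 rose, 20 fell and 14 did not pass, with a median of -0.08, and against KD1 it had 18 of them higher and 17 lower. That is 64%, 72% and 70% of the list, beside the shares of all genes above. *Aph1c* and *Egfl7* are in these counts although each passed the filter through 1 line only, and without them 31, 34 and 34 of 48 passed. With library size alone as scaling, the KD2 split was 19 higher and 13 lower.

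Among the genes that act on receptors, *Lfng*, a Fringe glycosyltransferase that changes ligand preference, fell in KD1 with a log2 fold change of -1.26 ± 0.097 (edgeR adjusted p = 7.70e-08). In that line 3 of 4 tested glycosylation genes were lower, as were 30.0% of all genes. *Pofut1*, the enzyme that adds O-fucose to Notch, rose in KD2 by 0.70 ± 0.059 (edgeR adjusted p = 1.58e-07). In KD1 *Pofut1* fell, at -0.34 ± 0.060 (edgeR adjusted p = 0.000269). It was the only one of the 4 to pass in KD2, where 67.2% of all genes did. Of 10 protease genes, 2 rose and 2 fell in KD1, where 56.9% of all genes passed, while 6, *Aph1c* among them, rose and 3 fell in KD2, where 67.2% did. *Adam10*, the protease of the cleavage that follows ligand binding, rose in KD1 by 0.92 ± 0.068, from 196 ± 6.61 to 371 ± 5.20 CPM (edgeR adjusted p = 5.12e-08). In KD2 *Adam10* rose by 0.35 ± 0.068 (edgeR adjusted p = 0.000385). *Aph1c*, a gamma-secretase subunit gene of low level, had 3 to 4 counts in WT cultures, 4 to 7 in KD1 and 27 to 40 in KD2, with a ratio of summed counts of 8.66 for KD2 to WT (95% counting interval 4.52 to 18.6). It passed the filter of 0.392 CPM only through KD2, so this is a description with no test. Its paralogue *Aph1b*, named outside the rule for this list and also after its values were seen, rose in KD2 by 1.51 ± 0.10 (edgeR adjusted p = 1.76e-08). As 18.4% of 50-base windows are shared between the pair, their split is uncertain.

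Among genes that act on ligands, *Dlk2*, a non-canonical ligand, rose in KD1 by 1.57 ± 0.19 (edgeR adjusted p = 1.03e-05) and in KD2 by 0.56 ± 0.21 (edgeR adjusted p = 0.0290). The KD2 cultures overlapped those of WT for *Dlk2*, and its KD2 call was lost without WT replicate 2 (0.47, edgeR adjusted p = 0.102), WT replicate 3 (0.48, 0.0944) or KD2 replicate 3 (0.41, 0.0681). *Dlk1* was at 0 in all cultures, and *Dll3*, *Dll4* and *Dner* did not pass the filter. Of 4 ubiquitin ligases of ligands, 1 rose and 2 fell in KD1, where 26.9% of all genes were higher and 30.0% lower. *Neurl1a* fell in KD1 with a log2 fold change of -1.04 ± 0.16 (edgeR adjusted p = 6.34e-05) and rose in KD2 by 0.50 ± 0.14 (edgeR adjusted p = 0.00614). In KD2, 2 rose and 2 fell, where 34.0% of all genes were higher and 33.3% lower. *Neurl1b* rose in KD2 by 0.67 ± 0.083 (edgeR adjusted p = 6.98e-06) and in KD1 by 0.99 ± 0.082 (edgeR adjusted p = 1.70e-07). Exons of *AC132288.2* overlap 9.47% of *Neurl1a* exon bases.

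In the nucleus, *Rbpj*, which encodes the DNA-binding partner of the receptor, did not pass in KD1 (-0.15 ± 0.091, edgeR adjusted p = 0.174) or in KD2 (0.08 ± 0.091, edgeR adjusted p = 0.467). Without KD2 replicate 3 it passed in both, at -0.13 (edgeR adjusted p = 0.0334) and 0.21 (edgeR adjusted p = 0.00254); it is named here for its role. Of 7 co-activator genes, 1 rose and 2 fell in KD1, where 26.9% of all genes were higher and 30.0% lower. *Maml2*, a Mastermind gene, fell in KD1 with a log2 fold change of -0.81 ± 0.076 (edgeR adjusted p = 6.30e-07). In KD2 *Maml2* was at -0.27 ± 0.075 (edgeR adjusted p = 0.00592). That call was lost with library size alone (-0.16, edgeR adjusted p = 0.0781) or without WT replicate 2 (-0.18, 0.0662). In KD2, 1 rose and 4 fell, where 34.0% of all genes were higher and 33.3% lower. *Kat2b*, an acetyltransferase gene, rose in KD2 by 1.32 ± 0.087 (edgeR adjusted p = 1.50e-08) and in KD1 by 0.66 ± 0.087 (edgeR adjusted p = 1.90e-05). Of 10 RBPJ co-repressor genes, 8 fell and 0 rose in KD1, where 30.0% of all genes were lower and 26.9% higher, while 5 fell and 1 rose in KD2, where 33.3% were lower and 34.0% higher. *Fhl1*, whose product includes a form that binds RBPJ, fell in KD1 with a log2 fold change of -3.88 ± 0.11, or 14.7-fold (edgeR adjusted p = 1.30e-12), and in KD2 with one of -1.22 ± 0.085 (edgeR adjusted p = 2.37e-08). Of 8 inhibitors and turnover genes, 2 rose and 2 fell in each edited line, *Egfl7* among the latter. The shares of all genes higher and lower were 26.9% and 30.0% in KD1, and 34.0% and 33.3% in KD2. *Egfl7*, a secreted inhibitor known from endothelium, was at 1.02 ± 0.0144 CPM in WT, 0.142 ± 0.0188 in KD1 and 0.0954 ± 0.0275 in KD2. Its WT to KD1 ratio of summed counts was 7.14 (95% counting interval 3.74 to 15.0) and its WT to KD2 ratio 10.9 (5.00 to 28.1). It passed the filter of 0.392 CPM only through WT, so its lower levels in both edited lines were bound to appear and are given with no test. Exons of *Agpat2*, *Gm20532*, *Mir126a* and *Mir126b* overlap 11.2% of *Egfl7* exon bases, and 7.28% of 50-base windows of *Kat2b* are shared with *Kat2b-ps*, so reads of these genes may be split.

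The other target genes did not share 1 direction. All 6 that were tested passed in every comparison, where 56.9%, 67.2% and 67.8% of all genes did, and all 6 were lower in KD2 than in KD1, where 33.0% of all genes were. *Cdkn1a*, which encodes a cyclin-dependent kinase inhibitor, rose in KD1 by 1.24 ± 0.062 (edgeR adjusted p = 7.56e-10). In KD2 *Cdkn1a* rose by 0.20 ± 0.063 (edgeR adjusted p = 0.0139), a call lost without the filter on low counts (0.16, edgeR adjusted p = 0.0908). *Nrarp*, a feedback inhibitor induced by Notch, fell in KD2 with a log2 fold change of -1.74 ± 0.15 (edgeR adjusted p = 2.70e-07). In KD1 *Nrarp* was at -0.57 ± 0.14 (edgeR adjusted p = 0.00286). An antisense model, *Gm38287*, overlaps 79.4% of *Nrarp* exon bases. *AC167363.2* overlaps 7.68% of *Cdkn1a* exon bases and *LTO1* 23.4% of those of *Ccnd1*, both on the opposite strand, and *Abcc10* 2.41% of those of *Dlk2*. The remaining 4 are named outside the rule for this list, also after their values were seen. *Ccnd1*, encoding cyclin D1, had log2 fold changes of 1.11 in KD1 and -0.18 in KD2, the latter not passing with library size alone (-0.072). *Gata3*, a luminal transcription factor gene, had 1.22 and 0.34. *Myc* had -0.83 and -1.43, and *Snai2*, a basal transcription factor gene, had -0.28 and -0.88, the former not passing without WT replicate 3 (-0.21, edgeR adjusted p = 0.0765). Unlike *Hes1* and *Hey1*, which were lower in KD1 than in KD2, *Myc*, *Nrarp* and *Snai2* were lowest in KD2. *Hes5* was at 0 in every culture, and *Hes7*, *Hey2* and *Dtx1* were not tested.

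**Figure D5:**
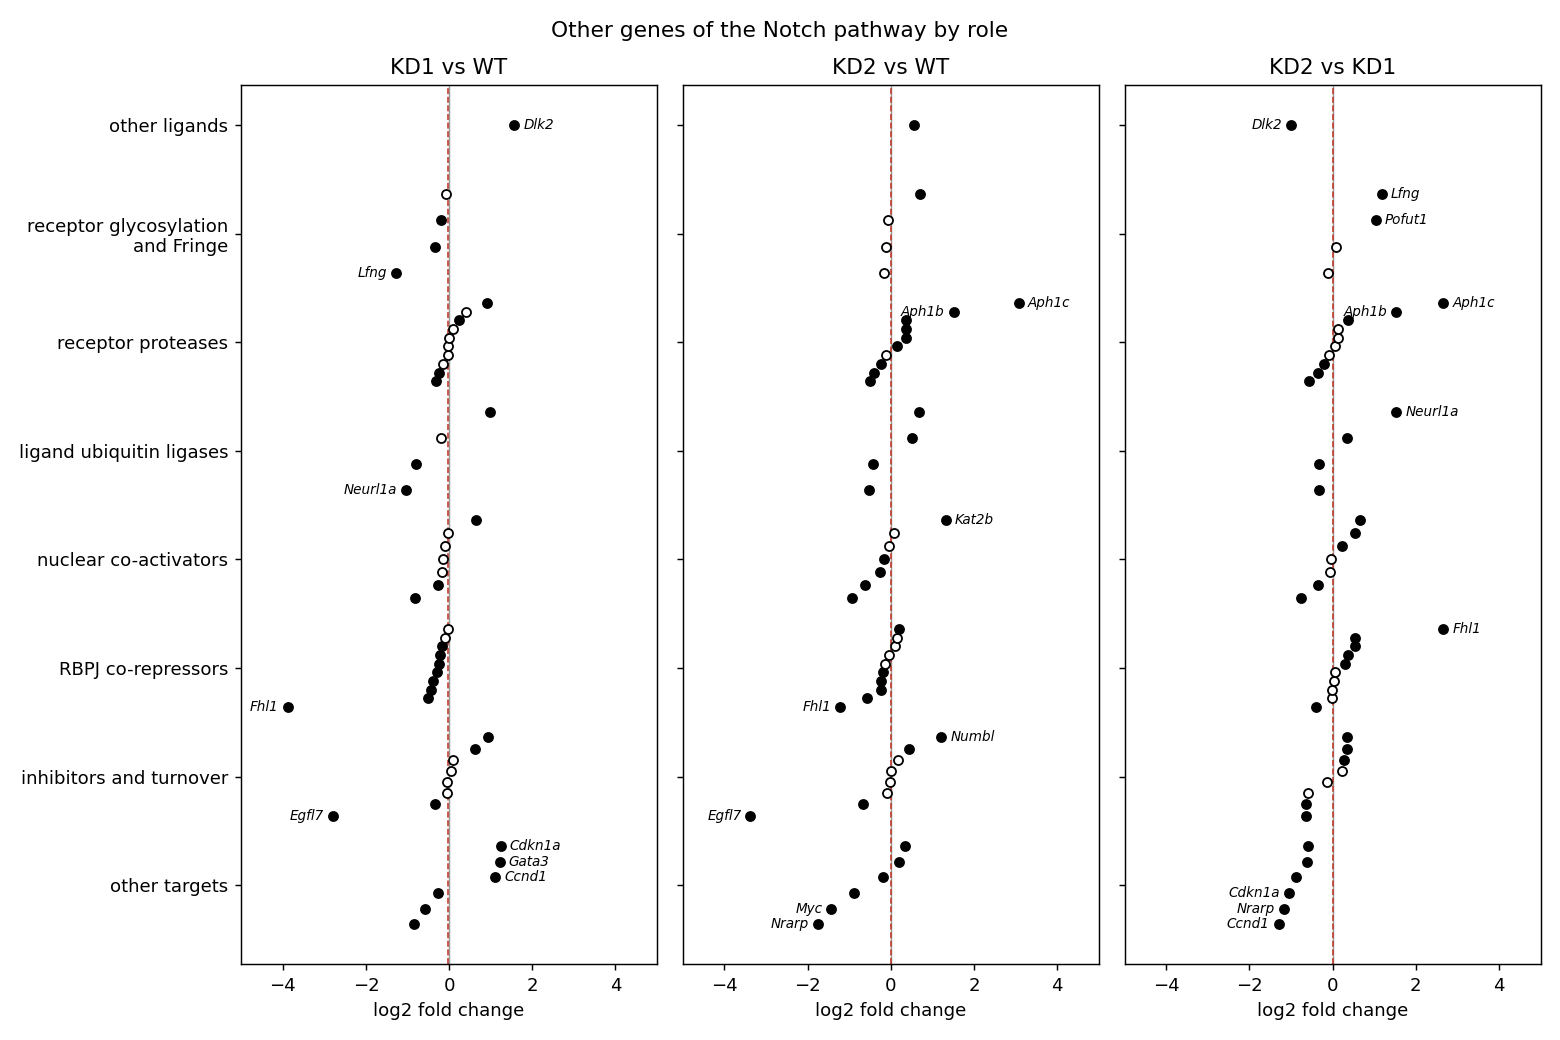
Log2 fold changes of the 50 tested genes of the wider Notch list by role, in each comparison; filled points passed edgeR's test, open points did not, genes beyond 2-fold are named, and the dashed line is the median of all genes. *Fhl1* and *Egfl7* lie lowest in KD1, and *Egfl7* lowest and *Aph1c* highest in KD2, both of which entered the test through 1 line only.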

How the data were processed

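RNA-seq counts were analysed from 9 HC11 cultures, 3 each of WT, KD1 and KD2, with lines and replicate numbers taken from the labels. The table deposited by the authors holds raw read counts per gene as whole numbers, made per the submitters' processing notes with fastp, HISAT2, featureCounts (Subread) and GRCm38. Whether counting used strand is not given in the sources used here. The labels state that lysates were flash frozen, and the methods state otherwise. Counts were tested with edgeR 4.0.16 in R 4.3.3 (quasi-likelihood test, TMM scaling, expression filter on the 3 lines, 1 fit of all cultures without a block), with Benjamini-Hochberg adjustment over 15253 genes. A gene passed at an adjusted p under 0.05. A standard error is the absolute log2 fold change over the root of F. Exon lengths, overlaps and positions came from GENCODE M21, which matched 53456 of the 55228 gene names to 1 gene, and shares of 50-base windows in common with other genes were counted on its transcripts. A chi-square test on the genes of each replicate pair found all pairs to differ beyond sampling noise. The test was checked on simulated counts. Alternatives were DESeq2 1.42.0, other size factors, other filters, fewer cultures and a replicate block.

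The members and lists were chosen with earlier results of these data known. Named genes are the 10 members, *Vangl2* as the edited gene, and from each role of the wider list the gene that passed with the largest absolute log2 fold change in each edited line. Depth was 19231428 to 28360592 counts, and intervals on counts cover counting error only.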

Additional observations from a re-analysis of the deposited data

Results flagged for a closer look

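Levels in the 2 edited lines differed for 19 genes among the members and the wider-list genes named for the largest fold changes. The comparison was the direct edgeR one of KD2 with KD1, adjusted over all genes. *Aph1b*, *Rbpj*, *Ccnd1*, *Gata3*, *Myc* and *Snai2*, named for other reasons, also passed it and are not counted, nor is *Vangl2*. Of all genes tested, 67.8% differed too. The named genes of the wider list were picked for the largest fold changes against WT in these same data. The count of 19 therefore cannot be weighed against that share. *Notch4* and *Aph1c* also passed between the edited lines, but they entered the test only through KD2, where they are high. Their values are a description with no test. Each value is the log2 fold change of KD2 against KD1. Among receptors it was 1.87 for *Notch1*, 0.54 for *Notch2*, -0.35 for *Notch3* and 1.47 for *Notch4*. Among ligands it was -0.48 for *Jag1*, -0.24 for *Jag2*, -1.67 for *Dll1* and -1.003 for *Dlk2*. The targets *Hes1* and *Hey1* were at 0.74 and 4.25, *Nrarp* at -1.17 and *Cdkn1a* at -1.05. For genes acting on receptors it was 1.04 for *Pofut1*, 1.19 for *Lfng*, -0.57 for *Adam10* and 2.66 for *Aph1c*. For ligand ubiquitin ligases it was 1.54 for *Neurl1a* and -0.32 for *Neurl1b*. For nuclear factors it was 0.54 for *Maml2*, 0.66 for *Kat2b* and 2.66 for *Fhl1*. Leaving *Notch4* out, every KD2 culture was beyond every KD1 culture for 7 of the 8 Notch receptors, ligands and targets tested. *Jag2* was the exception, and 71.6% of all genes did not overlap. No cause of these differences was tested.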

How the results depend on the processing

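For the 9 Notch receptors, ligands and targets tested, 398 of the values under an alternative kept direction and call, 18 lost the call, 9 gained it and 0 changed sign. The KD2 values of *Notch4* are among them and are no test. With at least 10 counts in every culture, which leaves out *Notch4* and *Hey1*, the genes past 2-fold were 2 in KD1, 1 in KD2 and 2 between the edited lines, and 3 were higher in KD2 than in KD1. With library size alone, which moved the median of all genes to 0.12 in KD2 and 0.14 between the edited lines, the wider list had 19 higher and 13 lower in KD2, and 25 higher and 14 lower between the edited lines, and *Jag2* did not pass there (-0.11, edgeR adjusted p = 0.316) while *Notch3* was at -0.22. Leaving out 1 culture gave 6 to 9 Notch genes passing in KD1, 9 in KD2 and 8 to 9 between the edited lines. These counts include *Notch4*, which entered the test only through its KD2 level. Its passes in KD2 and between the edited lines are therefore no test. *Lfng* in KD2, not past the test, was at -0.08, at 0.031 with library size alone and at 0.017 to -0.16 with 1 culture left out. *Aph1b* in KD1 was at -0.02, at 0.012 with at least 10 counts, at 0.017 with 6 cultures and between -0.061 and 0.050 with 1 left out. *Vangl2* in KD2 was between -0.038 and 0.13 with 1 culture left out. Same-numbered cultures did not deviate together (mean r = 0.0012 over 9 pairs, from -0.065 to 0.079), so the numbers were not taken to pair them. With a replicate block the Notch genes passing were 6 in KD1, 9 in KD2 and 9 between the edited lines, the last 2 again with *Notch4*. In KD1 *Notch4* was not past the test with the block (1.04, edgeR adjusted p = 0.0694). *Notch4* had no KD1 value in the fit of 6 cultures, and *Notch4*, *Hey1*, *Egfl7* and *Aph1c* none with at least 10 counts. The share of all genes passing under each alternative is not given here. The counts under an alternative therefore describe only these lists and cannot be set beside all genes.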
